A study of Mus musculus with 12 samples.

Results

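The genes described here encode RNA polymerase II, its general transcription factors, the TATA-binding-protein-associated factors (TAFs) and Mediator. They were chosen by symbol alone: Polr2a to Polr2m, the Gtf2 genes of TFIIA, TFIIB, TFIIE, TFIIF and TFIIH, the Taf genes with a plain number, and the numbered Med genes. This rule found 74 genes, the same 74 in each of the 2 deposited tables, which list 17866 genes (knockdown table) and 19390 genes (immunoprecipitation table). By family there were 13 Polr2, 13 Gtf2, 17 Taf and 31 Med symbols, of which 30 encode Mediator proteins and 1, Med9os, names a transcript beside Med9.

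RNA polymerase II makes messenger RNA and cannot find a promoter by itself. TFIID, built from the TATA-binding protein and the TAFs, marks the start site, TFIIA and TFIIB join it, TFIIF brings the polymerase, and TFIIE and TFIIH complete the assembly and open the DNA. Mediator, with head, middle, tail and kinase modules held together by the Med14 scaffold, carries signals from DNA-bound activators to the polymerase. In the mouse 2-cell embryo, where the major wave of zygotic genome activation takes place, transcripts for this machinery can come from the egg or from the embryo's own genome, and a level in a library does not separate these sources.

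The series asks what Eif1ad3, a gene related to the translation initiation factor gene Eif1a, does at this activation, and holds 12 libraries of 2-cell embryos in 6 labelled groups of 2 replicates, A and B. In the knockdown experiment, CF1 1-cell embryos of the control group (genotype label WT) received mRNA of RfxCas13d, an RNA-cutting enzyme, alone, and those of the knockdown group (Eif1ad3_KD) received it with guide RNA against Eif1ad3 and what the design text calls its variance. The sample labels differ on the reagent and name antisense morpholino oligos with Cas13d protein in oocytes. In the RNA immunoprecipitation (RIP) experiment, zygotes received in vitro transcribed Eif1ad3-6xHis mRNA at 200 ng/uL (label Eif1ad3_OE), and lysates of 200 cells per replicate were taken down with anti-His beads (His) or with IgG beads as negative control. The same label is on the Input libraries, while the total libraries are labelled WT. The RIP table has 4 columns without pulldown, named In_ni A, In_ni B, In_total A and In_total B, and their names do not decide which are Input and which total. They are called RNA without pulldown here, and are given by column. They are not replicates of 1 condition: the total libraries carry the label WT and the Input libraries Eif1ad3_OE. The embryos in each knockdown or control library are not given in the sources used here, the injected material is transient, and nothing states that A and B are separate embryo pools, so p-values measure only the spread between these libraries.

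Values are CPM, which express the reads of a gene relative to all reads of its library on a common scale. Library totals ran from 18173916 to 27902514 reads for control and knockdown, from 7917501 to 8364126 for His, from 4678563 to 5925209 for IgG and from 15715664 to 25209070 without pulldown. All 16 markers of the 2-cell embryo and oocyte reached 1 CPM in every control, knockdown, His and without-pulldown library, with sums of 10394.6 to 17242.2 CPM. In IgG their sums were 4537 and 6273 CPM, and Usp17lc, Tdpoz4 and Zp1 were at 0. Markers of cumulus and granulosa cells summed to 5.94 to 16.6 CPM outside IgG and to 0 in IgG. Sperm markers summed to 1.08 to 7.20 CPM outside IgG and to 47.4 and 54.3 CPM in IgG. The IgG sums of the sperm list are Prm2 alone. Prm1, Odf1 and Akap4 were at 0 in both IgG libraries, and Tnp1, Tnp2 and Smcp are not listed. Markers of fibroblasts, blood and epithelium summed to 215.9 and 311 CPM in control, 217 and 275 CPM in knockdown, 90.9 and 101 CPM in His, 83.4 to 94.1 CPM without pulldown, and 0 and 114 CPM in IgG. Those of trophectoderm and later embryo summed to 42.3 and 72.5 CPM in control, 67.8 and 38.8 CPM in knockdown, 206 and 179 CPM in His, 95.7 to 114 CPM without pulldown, and 118 and 3.63 CPM in IgG. The part of these cell types in the results was not tested. Pearson's correlation between replicates over the 74 genes on the log2(CPM + 1) scale, a description only, was 0.983 for control, 0.914 for knockdown, 0.962 for His, 0.465 for IgG, 0.985 for In_ni and 0.976 for In_total. The IgG replicates thus resembled each other least. The targeted gene Eif1ad3 stood at 839 and 663 CPM in control and at 277 and 377 CPM in knockdown (log2 difference -1.21, SE 0.33, adjusted p = 0.859). In the RIP table it was at 109 and 91.6 CPM in In_ni, 185 and 111 CPM in In_total, 80.3 and 83.6 CPM in His and 1.35 and 30.8 CPM in IgG. It was thus not higher in His than without pulldown (-0.54, SE 0.30, adjusted p = 0.174), and neither kind of column without pulldown stands far above the other, although 1 kind is labelled Eif1ad3_OE. In bulk RNA, fewer cells and less RNA per cell cannot be told apart.

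Between knockdown and control embryos, no gene of the set passed the test, which was limma on log2(CPM + 1) with Benjamini-Hochberg adjustment over all genes and an adjusted p under 0.05 as the threshold. The largest-subunit gene Polr2a and the shared-subunit genes Polr2e, Polr2f and Polr2l had their lower values in knockdown, and Gtf2b, Gtf2a2 and Med30 their higher ones. Of the 74 genes, 72 passed the filter of 1 CPM in 2 libraries, and Taf7l and Taf9 did not. The test called 0 of the 72, with 0% of the 13332 genes tested called, and the smallest adjusted p among them was 0.859. At an unadjusted p under 0.05 there were 4 (Med29, Med30, Gtf2a2 and Polr2a) against 5.45% of all genes tested. On the recovered reads, edgeR called 0 of them (0% of all genes) and DESeq2 also 0 (0.113% of all genes). The median log2 difference, knockdown minus control, was -0.13 over the 72 genes and 0.02 over all genes tested.

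The knockdown replicates differed from each other more than the controls did. The median SD of a gene on the log2 scale was 0.56 between the knockdown libraries and 0.15 between the controls. Relative to the control mean, 33 of the 72 genes lay on opposite sides in knockdown A and knockdown B, 25 were below it in both and 14 above it in both. The same counts were not made over all genes, so they show no trait of this set. The median of the 72 genes was 0.03 in knockdown A and -0.28 in knockdown B, beside 0.14 and -0.17 for all genes tested. With knockdown A left out, 20 of 70 genes passed (5 higher and 15 lower, with 15.1% of all genes called), and with knockdown B left out 2 passed, with 3.23% called. In those fits the lone library is assumed to vary like the controls.

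**Figure D1:**
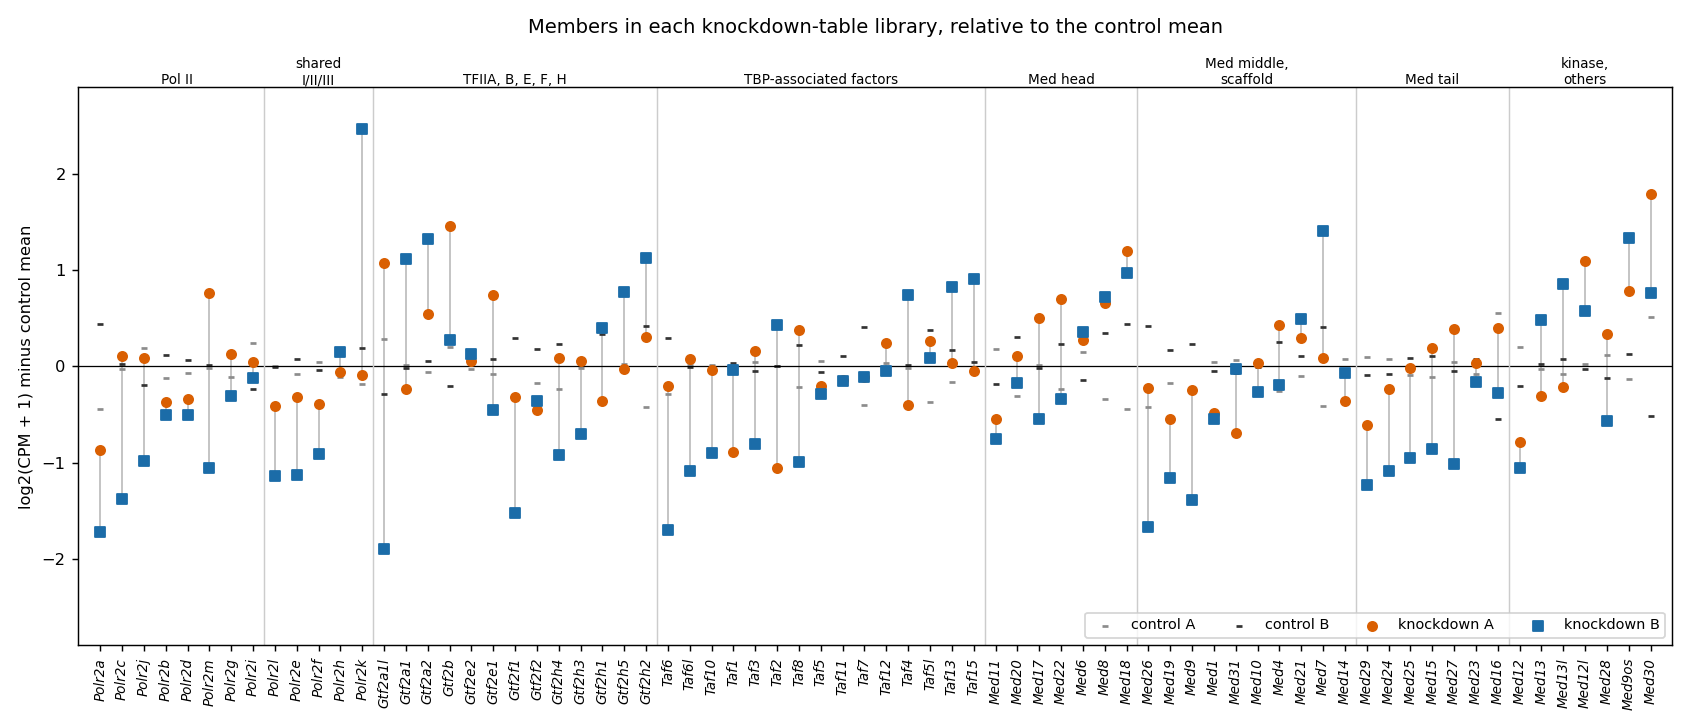
Each of the 72 genes tested is a column, grouped by role; the y axis is log2(CPM + 1) in a library minus the mean of the 2 controls, with dashes for the controls, circles for knockdown A and squares for knockdown B. The 2 knockdown marks often sit far apart, as for Polr2k and Gtf2a1l, while among the Polr2 genes 6 have both marks below both control dashes.

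Genes whose 2 knockdown libraries lay below both controls numbered 19, with 18.4% of all genes tested in that position, and those above both numbered 10, with 18.1%. The 19 are 26.4% of the 72. Among the 13 Polr2 genes, 6 lay below both controls and 0 above, and 11 had a negative log2 difference (10 in edgeR and DESeq2), with a median of -0.43. The family median was -0.09 in knockdown A and -0.91 in knockdown B, so knockdown B held the lower values.

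Polr2a encodes the largest subunit, which carries the polymerase's long repeated tail. It was at 23.6 and 44.3 CPM in the controls and at 17.3 and 9.08 CPM in knockdown A and B, 38.9% of the control mean, with no overlap between the groups (log2 difference -1.30, SE 0.53, adjusted p = 0.859). Polr2b, the second largest subunit, was at 174 and 205 CPM in the controls and at 146 and 133 CPM in knockdown. Polr2d, part of the stalk at the RNA exit side, was at 439.9 and 483 CPM in the controls and at 363 and 325 CPM in knockdown. All of these groups were apart, and none of the differences passed the test.

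The subunits Polr2e, Polr2f, Polr2h, Polr2k and Polr2l are shared with RNA polymerases I and III. Polr2e was at 293 and 327 CPM in the controls and at 249 and 141 CPM in knockdown, or 62.9% of the control mean. Polr2f was at 559.5 and 527 CPM in the controls and at 414 and 288 CPM in knockdown, 64.6% of the control mean. Polr2l was at 295 and 292 CPM in the controls and at 221 and 132 CPM in knockdown, 60.2% of the control mean. These 3 lay below both controls in both knockdown libraries, with log2 differences of -0.72 (SE 0.37), -0.65 (SE 0.33) and -0.77 (SE 0.36) and an adjusted p of 0.859 each. Polr2h overlapped the controls, at 122 and 143 CPM against 127 and 147 CPM. Polr2k was at 38.2 and 49.97 CPM in the controls and at 41.0 CPM in knockdown A, and only knockdown B stood apart, at 247 CPM. The remaining subunits had overlapping groups: Polr2c, Polr2g, Polr2i, Polr2j and Polr2m had log2 differences of -0.63, -0.09, -0.04, -0.45 and -0.15.

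**Figure D2:**
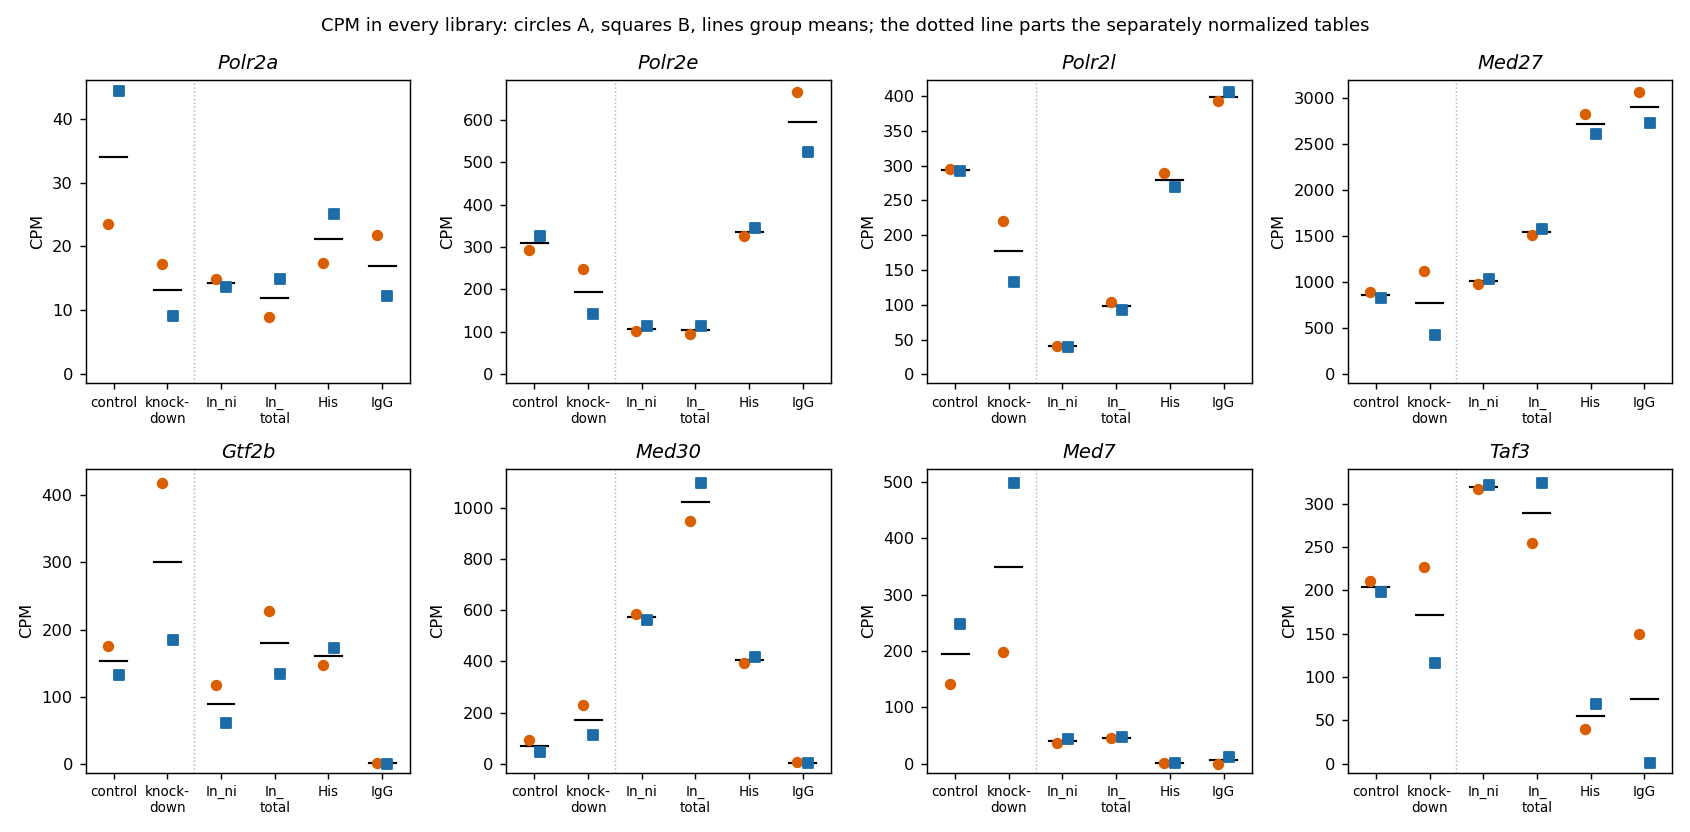
CPM of 8 genes in all 12 libraries, with circles for replicate A, squares for replicate B and lines for the mean of each pair; the dotted line parts the 2 tables, which were normalized separately and are not compared with each other. Polr2a, Polr2e and Polr2l show both knockdown libraries below both controls, and Gtf2b and Med30 show IgG libraries near 0 beside filled His libraries.

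The bases just upstream of the annotated starts of Polr2a, Polr2e, Polr2f and Polr2l are printed because these genes include the largest subunit and the 3 shared subunits that lay below both controls in both knockdown libraries. Sequences are from RefSeq, build GRCm38.p6, 120 bases ending just before the start, 5′ to 3′ on the gene's strand. Capitals mark the motifs searched on both strands: the TATA box (letters TATAAA), the GC box (letters GGGCGG), the ETS-type motif (letters CCGGAAG), the CCAAT box and the YY1-type motif (letters AAGATGG).
Polr2a, chr11:69758634-69758753, minus strand: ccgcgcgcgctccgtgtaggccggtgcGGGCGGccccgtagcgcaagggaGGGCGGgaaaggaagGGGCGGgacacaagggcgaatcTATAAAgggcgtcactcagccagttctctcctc
Polr2e, chr10:80039660-80039779, minus strand: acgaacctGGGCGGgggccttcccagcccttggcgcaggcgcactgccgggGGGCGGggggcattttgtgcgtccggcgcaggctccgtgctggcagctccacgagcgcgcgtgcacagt
Polr2f, chr15:79141205-79141324, plus strand: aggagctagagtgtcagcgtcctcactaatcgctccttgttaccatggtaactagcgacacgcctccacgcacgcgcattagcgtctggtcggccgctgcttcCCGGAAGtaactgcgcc
Polr2l, chr7:141475154-141475273, minus strand: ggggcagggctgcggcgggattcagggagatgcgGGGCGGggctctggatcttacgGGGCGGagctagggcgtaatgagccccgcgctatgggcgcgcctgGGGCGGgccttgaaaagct
Polr2a has 3 GC boxes and a TATA box in these bases, Polr2l has 3 GC boxes, Polr2e has 2 GC boxes and Polr2f has 1 ETS-type motif and no GC box.

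Over the whole family, 64 of the 74 genes matched the RefSeq promoter table, with 76 windows where alternative starts are counted separately. In the 250 bases before the start, 61.8% of these windows held a GC box, beside 32.7% of all 32851 windows in the table. The ETS-type motif was in 21.05% of them and in 6.91% of all windows. A TATA box was in 15.8% against 12.4%, a CCAAT box in 31.6% against 33.9%, and the YY1-type motif in 6.58% against 4.49%. The NRF1-type motif, also searched on both strands, was in 0% against 0.782%. The ETS-type and YY1-type motifs can overlap by their shared letters AAG. The median GC content of the windows was 57.2% for these genes and 52.4% for all, so GC-rich motifs are counted in windows of differing base composition. These matches describe letters and show no binding.

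Among the general factors, estimates in the knockdown had both signs, 8 positive and 5 negative among the 13 Gtf2 genes. TFIIF, which escorts the polymerase to the promoter, had both of its genes below both controls. Gtf2f1 was at 213 and 321 CPM in the controls and at 209.6 and 90.2 CPM in knockdown (log2 difference -0.92, SE 0.46), and Gtf2f2 at 224 and 287 CPM against 185 and 198 CPM (-0.41, SE 0.32). Gtf2b, which encodes TFIIB, the factor that joins polymerase and promoter, was at 175 and 132 CPM in the controls and at 418 and 184 CPM in knockdown (0.86, SE 0.44). The TFIIA gene Gtf2a2 was at 109.6 and 119 CPM in the controls and at 167 and 286 CPM in knockdown (0.93, SE 0.38). Gtf2b, Gtf2a2 and Gtf2e2 were the 3 Gtf2 genes above both controls, Gtf2e2 by little, at 94.3 and 98.7 CPM against 100.2 and 106 CPM. Of all genes tested, 18.1% lay above both controls and 18.4% below. All 5 genes of the TFIIH core overlapped their controls. For all of these genes the adjusted p was 0.859 or higher.

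The TAFs had 4 genes below both controls and 0 above among 15 tested, beside 18.4% and 18.1% of all genes, with a median log2 difference of -0.24. The 4 were Taf1, Taf5, Taf10 and Taf11, of which Taf1, Taf10 and Taf11 are named for this position after their values were seen. Taf5, a structural TAF of TFIID, was at 131 and 121 CPM in the controls and at 109 and 103 CPM in knockdown (-0.24, SE 0.33). Taf6, a histone-fold TAF, had the lowest TAF estimate (-0.95, SE 0.56), but its groups overlapped, at 39.9 and 60.3 CPM against 42.6 and 14.4 CPM.

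Of the 30 Mediator genes, 7 lay below both controls and 6 above, beside 18.4% and 18.1% of all genes, with a median log2 difference of -0.09. Below were Med11 of the head, Med1, Med9 and Med19 of the middle, Med24 and Med29 of the tail and Med12 of the kinase module. Above were Med6, Med8 and Med18 of the head, Med21 of the middle, Med12l of the kinase module and Med30. Only Med12, Med12l, Med29 and Med30 belong to the genes named by rule in this comparison, and the others are named after their values were seen. Med29, a tail subunit, was at 448 and 393 CPM in the controls and at 275 and 177 CPM in knockdown, 53.7% of the control mean (-0.92, SE 0.35, adjusted p = 0.859). Med30 was at 94.5 and 45.6 CPM in the controls and at 230.1 and 113 CPM in knockdown, 244% of the control mean (1.28, SE 0.49, adjusted p = 0.859). Med26, which links Mediator to elongation factors, had an estimate of -0.95 (SE 0.60) with overlapping groups, at 21.8 and 39.9 CPM against 25.1 and 8.64 CPM. The modules held genes on both sides, except that the tail had 2 below and 0 above.

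In the wider transcription machinery limma also called 0 genes of the knockdown in each of 3 lists, and at an unadjusted p under 0.05 there were 0 initiation partners, 2 elongation or termination factors and 1 subunit of polymerases I and III, against 5.45% of all genes tested. Of all genes, 18.4% lay below both controls and 18.1% above. Among 15 partners of initiation (the TATA-binding protein genes, the TFIIH and Mediator kinases and their relatives), 2 lay above both controls and 2 below. Among 30 elongation and termination factors 13 lay below and 3 above, and among 14 tested subunits of RNA polymerases I and III 6 lay below and 0 above. The estimates of largest size in these lists at a mean of at least 5 CPM were those of Nelfb (-1.16), a subunit of the pausing factor NELF, the TFIIH helicase Ercc3 (-1.002), Polr1e (-0.996), a polymerase I subunit, and Cdk9 (-0.97), the kinase that releases paused polymerase. Nelfb was at 17.4 and 14.6 CPM in the controls and at 5.81 and 7.43 CPM in knockdown. Cdk9 was at 82.6 and 105 CPM in the controls and at 59.2 and 37.5 CPM in knockdown. Each of these 4 had an adjusted p of 0.859.

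RNA recovered in the His pulldown differed from RNA without pulldown in 34 of the 71 genes tested. Shared polymerase subunits (Polr2e, Polr2h, Polr2l) and Mediator tail genes (Med16, Med27) were among the higher ones, and TFIIH (Gtf2h1, Gtf2h2), TAF (Taf3) and middle Mediator genes (Med7) among the lower ones; differences between these families were not tested. The comparison asks which transcripts are more or less frequent in the His pulldown than in the embryos' RNA. Its fit takes the 4 columns without pulldown as 1 group, so every SE and call rests on treating WT and Eif1ad3_OE RNA as replicates, and differences between In_ni and In_total count as spread; fits against each kind alone are given further on. In limma, 14 of the 71 (19.7%) were higher in His and 20 (28.2%) lower, beside 14.2% and 25.9% of the 14387 genes tested, 40.2% in either direction. The median log2 difference, His minus without pulldown, was 0.32 for these genes and -0.18 for all genes tested. The median of these genes turned to -0.13 against In_total alone and to -0.007 with His B left out. With each library rescaled to a common median the split was 18 higher and 16 lower (41.1% of all genes called), and with quantile normalization 16 and 16 (38.9% called). Med9os, Taf7l and Taf9 did not pass the filter. In all 18 alternatives 12 of the 34 kept their call: Polr2e, Polr2l and Med27 as higher, and Gtf2e2, Gtf2f2, Gtf2h1, Gtf2h2, Med1, Med7, Med14, Taf3 and Taf7 as lower. With His B left out, 21 passed (7 higher, 14 lower, with 38% of all genes called). A gene can also be frequent on IgG beads, so the IgG levels of the genes called are given below. The mean IgG level was above the mean without pulldown for 12 of the 14 higher genes, beside 56.5% of the 2047 higher among all genes, and below it for 19 of the 20 lower ones, beside 91.7% of the 3732 lower among all genes. For 7 of the 14 (Med22, Med27, Med29, Polr2e, Polr2h, Polr2l and Taf6) both IgG libraries lay above every library without pulldown, beside 26% of those 2047. These counts describe levels only, since the comparisons share libraries.

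**Figure D3:**
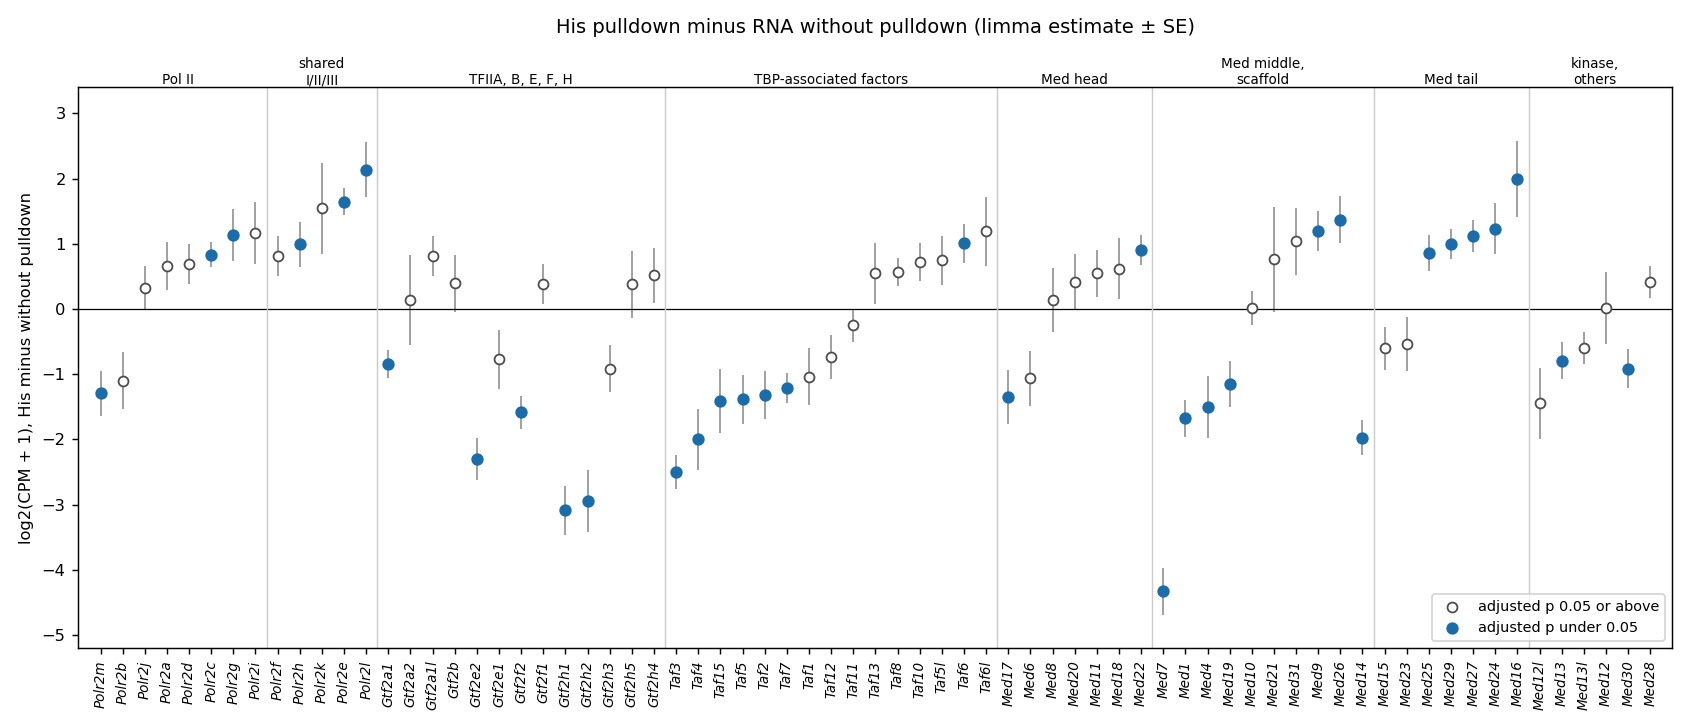
Estimates of limma with their SE for the 71 genes tested, grouped by role; the y axis is the log2(CPM + 1) difference, His minus RNA without pulldown, and filled marks have an adjusted p under 0.05. Filled marks of the shared polymerase subunits and of the Mediator tail are all above 0, and those of the TFIIA to TFIIH genes are all below 0.

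Of the 13 Polr2 genes, 5 passed as higher in His (14.2% of all genes tested did), 1 as lower (25.9%) and 7 were not called, and the median was 0.83. Both His libraries lay above all 4 libraries without pulldown for 9 of the 13, beside 23.6% of all genes tested. All 5 shared subunits had a positive estimate, and 3 of them passed. Polr2l was at 289 and 269.5 CPM in His, at 40.6 and 39.5 CPM in In_ni, and at 104 and 92.0 CPM in In_total. It was 4.04-fold higher by the means (log2 difference 2.14, SE 0.42, adjusted p = 0.00478), and at 393 and 405 CPM in IgG. Polr2e was at 327 and 344 CPM in His, at 102 and 114 CPM in In_ni and at 96.1 and 115 CPM in In_total, 3.14-fold higher (1.64, SE 0.21, adjusted p = 0.000634). Its IgG libraries held 666 and 523 CPM. So for both genes every His library lay above every library without pulldown, and every IgG library lay higher still.

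Polr2h, the third shared subunit that passed, was at 74.6 and 47.5 CPM in His and at 23.3 to 40.7 CPM without pulldown (0.99, SE 0.34, adjusted p = 0.0449), with 92.0 and 513 CPM in IgG. Among the polymerase's own subunits, Polr2c, which pairs with Polr2j in the enzyme's core, was at 2244 and 2147 CPM in His and at 1088 to 1393 CPM without pulldown (0.83, SE 0.19, adjusted p = 0.00885). Polr2g, the second stalk subunit, was at 355 and 385 CPM in His and at 99.1 to 277 CPM without pulldown (1.13, SE 0.40, adjusted p = 0.0482). In IgG, Polr2g was at 144 and 149.6 CPM, below both His libraries but not called against IgG (adjusted p = 0.0866), and Polr2c at 1932 and 1163 CPM. Polr2m, whose product associates with the polymerase, was the 1 Polr2 gene lower in His, at 11.8 and 7.96 CPM against 20.998 to 31.9 CPM (-1.29, SE 0.34, adjusted p = 0.0165), with 0.338 and 0.427 CPM in IgG. Polr2b had the other negative estimate, -1.10 (SE 0.44, adjusted p = 0.0712), and Polr2a had 0.66 (SE 0.37, adjusted p = 0.183). Leaving out 1 library ended the calls of Polr2c (0.80 without His A) and Polr2m (-1.03 without His B, -1.19 without In_ni A). It also ended those of Polr2g (0.88 to 1.28, for every library except In_total A) and Polr2h (0.67 to 1.05, for every library except His B and In_total B).

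Of the 13 general factor genes, 5 passed as lower in His and 0 as higher, beside 25.9% and 14.2% of all genes tested. Gtf2h1, a core subunit of TFIIH, was at 5.62 and 8.97 CPM in His, at 97.2 and 85.9 CPM in In_ni and at 51.4 and 49.8 CPM in In_total (-3.09, SE 0.38, adjusted p = 0.000561). Gtf2h2, also of the TFIIH core, was at 0.239 and 0 CPM in His and at 5.02 to 14.3 CPM without pulldown (-2.95, SE 0.48, adjusted p = 0.00209). Gtf2e2, the small subunit of TFIIE, was at 7.17 and 12.8 CPM in His and at 41.1 to 57.1 CPM without pulldown (-2.30, SE 0.32, adjusted p = 0.00111). For all 3 the groups were apart. Gtf2f2 (-1.59, SE 0.25, adjusted p = 0.00187) and Gtf2a1 (-0.84, SE 0.21, adjusted p = 0.0148), subunits of TFIIF and TFIIA, also passed as lower, Gtf2a1 no longer without His B (-0.68). Gtf2b overlapped, at 148 and 173 CPM in His and at 61.2 to 228 CPM without pulldown. In IgG, Gtf2h1 was at 0 and 174 CPM, Gtf2h2 at 0 in both, and Gtf2e2 at 0.338 and 0 CPM. Gtf2f2 was at 0 and 93.8 CPM in IgG, and Gtf2a1 at 51.5 and 206 CPM.

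Of the 15 TAFs tested, 6 passed as lower and 1 as higher, beside 25.9% and 14.2% of all genes tested, and the median was -0.74. Taf3, which reads a histone mark of active promoters, was at 40.4 and 68.7 CPM in His, at 317 and 321 CPM in In_ni and at 255 and 324 CPM in In_total (-2.50, SE 0.26, adjusted p = 0.000279). Its IgG libraries were far apart, at 149 and 0.855 CPM. Taf4 (-1.997, SE 0.47), Taf5 (-1.39, SE 0.37) and Taf7 (-1.21, SE 0.23), all of TFIID, were lower, with adjusted p of 0.00996, 0.0179 and 0.00414. Taf15, an RNA-binding protein of another family that can join TFIID, was lower at 0 and 0.505 CPM against 1.14 to 3.99 CPM (-1.41, SE 0.49). Taf2 was the sixth, named after its values were seen (-1.32, SE 0.37). Taf6 alone was higher, at 157 and 176 CPM in His and at 57.9 to 113 CPM without pulldown (1.004, SE 0.29, adjusted p = 0.0246), with 356 and 244 CPM in IgG. In IgG A and B, Taf4 was at 31.9 and 0.427 CPM, Taf5 at 28.02 and 25.6 CPM and Taf7 at 93.8 and 0 CPM. Taf2 was at 0 and 9.83 CPM there, and Taf15 at 0 in both. Calls ended without His B for Taf5 (-0.98), without His B or In_ni A for Taf2 (-0.86 and -1.24), without His A, In_ni A or In_ni B for Taf15 (-1.12, -1.21 and -1.25) and without His A, His B or In_total B for Taf6 (1.09, 0.92 and 0.96).

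In Mediator, 8 of the 30 genes passed as higher and 8 as lower, beside 14.2% and 25.9% of all genes tested. Of these, the tail had 5 of its 7 genes as higher and 0 as lower. Med27 was at 2823 and 2613 CPM in His and at 985 to 1578 CPM without pulldown (1.12, SE 0.25, adjusted p = 0.00809), with 3066 and 2731 CPM in IgG. Med16 was at 21.2 and 29.3 CPM in His and at 1.65 to 10.99 CPM without pulldown (1.99, SE 0.59, adjusted p = 0.0255), and at 0.169 and 0.427 CPM in IgG. Thus the 2 tail genes stood differently on IgG beads. Med24 (1.23, SE 0.39), Med29 (0.99, SE 0.23) and Med25 (0.85, SE 0.28, named after its values were seen) completed the 5, with 890.3 and 5.13, 259 and 278, and 155 and 378 CPM in the IgG libraries. Calls ended without His B or In_total B for Med16 (1.77 and 2.02), without His A, His B or In_total B for Med24 (1.23, 1.23 and 1.15), without His A for Med29 (0.86), and without either His library, In_ni A or In_total B for Med25 (0.76 to 0.95).

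In the middle module 2 of 9 passed as higher, Med26 (1.37, SE 0.36) and Med9 (1.198, SE 0.30), and 4 as lower, beside 14.2% and 25.9% of all genes tested. Med7, which forms the hinge of the middle module with Med21, had the lowest estimate of all 71 genes, at 0.717 and 1.77 CPM in His and at 37.0 to 47.1 CPM without pulldown (-4.33, SE 0.35, adjusted p = 0.000123). Its partner Med21 did not pass, at 94.9 and 99.5 CPM in His and at 17.5 to 235 CPM without pulldown. Med1, the subunit that meets nuclear receptors, was at 76.8 and 47.7 CPM against 157 to 240.1 CPM (-1.68, SE 0.28, adjusted p = 0.00239), and Med4 (-1.50, SE 0.48) and Med19 (-1.15, SE 0.35, named after its values were seen) were the other 2. The scaffold gene Med14 was at 46.3 and 35.6 CPM in His and at 127 to 196 CPM without pulldown (-1.98, SE 0.27, adjusted p = 0.000953). In the head, Med22 passed as higher (0.90, SE 0.23) and Med17, named after its values were seen, as lower (-1.35, SE 0.42). Med13 of the kinase module (-0.79, SE 0.28) and Med30 (-0.91, SE 0.30, named after its values were seen) passed as lower. On IgG beads the higher genes Med22, Med26 and Med9 were at 449 and 478, 29.7 and 292, and 0 and 193 CPM. Of the lower ones, Med7 was at 0 and 12.4 CPM in IgG, Med1 at 1.35 and 139 CPM, Med14 at 0.338 and 18.8 CPM and Med4 at 0 and 0.214 CPM. Med13 was at 1.69 and 5.77 CPM there, Med17 at 58.2 and 0 CPM, Med30 at 7.09 and 1.28 CPM and Med19 at 0 in both. Calls ended without His A for Med26 (1.17) and Med22 (0.88), and without His B for Med9 (1.03) and Med22 (0.92). Those of Med4 (-0.55 to -1.50), Med13 (-0.67 to -0.92), Med17 (-1.15 to -1.44), Med19 (-0.80 to -1.23) and Med30 (-0.74 to -0.95) ended for 4 or 5 of the 6 libraries each.

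Against IgG, 13 of 69 genes (18.8%) were higher in His and 0 lower, while 35.7% of the 11232 genes tested were higher and 0.917% lower, 36.6% in either direction. The median log2 difference, His minus IgG, was 1.38 for these genes and 2.01 for all genes tested. On the recovered reads the median of these genes turned to -0.08 in edgeR and -0.32 in DESeq2, beside 1.56 and 1.30 for all genes. Both His libraries lay above both IgG libraries for 25 of the 69, beside 54.1% of all genes tested, and below both for 10, beside 9.06%. Gtf2h2, Med9os, Taf15, Taf7l and Taf9 did not pass the filter. The count depends on the libraries and the tool. It was 0 with His A or His B left out (0 at an unadjusted p under 0.05, with 0.0889% and 0.0888% of all genes called), fits in which 10 of the 13 did not reach the filter and the spread comes from the IgG pair alone. Those 10 had passed the filter through the 2 His libraries alone, so the count of 13 describes these genes and is no support for a difference of the set. With IgG A left out it was 51 (29 higher, 22 lower, with 69.1% of all genes called), and with IgG B left out 50 (37 higher, 13 lower, with 70% called). In these fits the lone IgG library is assumed to vary like the His pair, which supplies all of the spread. On the recovered reads it was 0 in edgeR (12 at an unadjusted p under 0.05, with 0% of all genes called) and 23 in DESeq2 (16 higher, 7 lower, with 49.1% called).

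The 2 IgG libraries differed widely, gene by gene. Of the 74 genes, 9 had 0 reads in both IgG libraries, 28 had 0 reads in exactly 1 of them and 37 were read in both. A gap of 10-fold or more between replicates, on CPM + 1, was found for 25 genes in IgG and for 0 in His. Med24 is an example, at 890.3 CPM in IgG A and 5.13 CPM in IgG B, and 73.4 and 73.6 CPM in His. Gtf2f1 is another, at 411 and 0 CPM in IgG, and 139.6 and 202 CPM in His. Over all genes listed, 64.8% and 63.0% were at 0 in the IgG libraries and 26.5% and 27.4% in the His libraries.

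**Figure D4:**
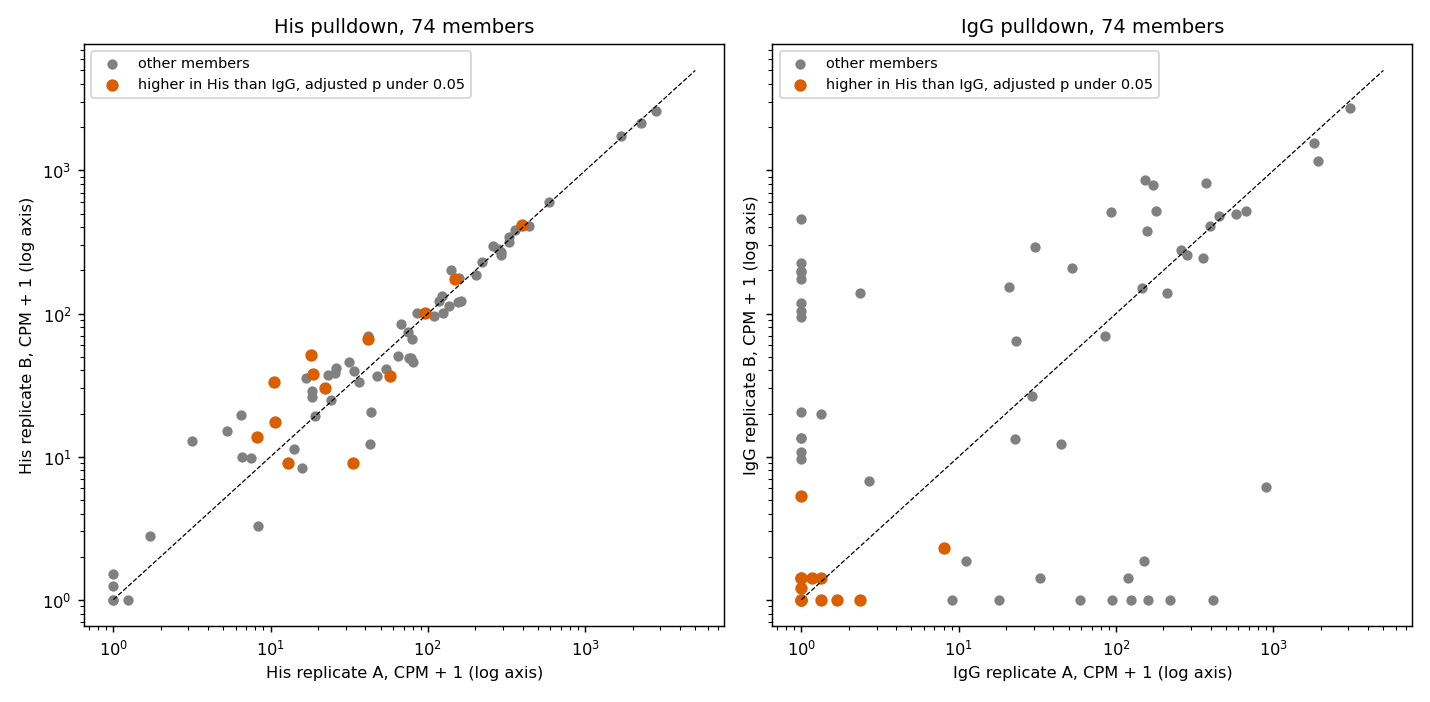
Replicate B against replicate A for the 74 genes in the His pulldown (left) and the IgG pulldown (right), both axes CPM + 1 on a log scale, with a dashed line of equality and filled orange marks for the 13 genes higher in His than in IgG. The His points follow the line, the IgG points scatter along both axes, and the 13 lie near the origin of the IgG panel.

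None of the 13 genes that passed exceeded 7.09 CPM in an IgG library, and only Med20, Med21 and Med30 reached 1 CPM in one. The other 10 (Gtf2b, Taf13, Med18, Med19, Taf5l, Med4, Gtf2e1, Med16, Gtf2e2 and Polr2m) passed the filter through the His libraries alone. Their adjusted p-values, bounds and ratios thus describe these levels and are no independent support for a difference. Gtf2b was at 148 and 173 CPM in His and at 0.675 and 0 CPM in IgG (log2 difference 6.96, SE 0.75, adjusted p = 0.0104). Med30 was at 395 and 416 CPM in His and at 7.09 and 1.28 CPM in IgG (6.56, SE 1.08, adjusted p = 0.0219). Taf13, a histone-fold TAF, was at 40.5 and 65.2 CPM in His and had 0 reads in both IgG libraries (adjusted p = 0.00997), so that it was at least 186-fold higher against a floor of 3 reads over the IgG group. By the same floor Med18 of the head was at least 117-fold higher and Med19 at least 45.8-fold higher. Med12l, at least 24.3-fold higher by its reads, did not pass (adjusted p = 0.0901).

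A further 5 of the 13 had 1 to 3 IgG reads in all, and their ratios carry wide counting intervals. All 5 are among those that passed the filter through His alone, which these intervals do not take into account. The ratio of pooled CPM, His over IgG, was 246 for Taf5l (95% interval 67.7 to 2031), 218 for Med4 (38.8 to 8617), 109 for Gtf2e1 (30.1 to 907), 88.8 for Med16 (30.2 to 432) and 52.4 for Gtf2e2 (14.3 to 437). Taf5l, a TAF5 relative in the SAGA coactivator complex, was at 56.3 and 35.7 CPM in His. The remaining genes that passed were Med20 (4.11, SE 0.75, adjusted p = 0.0282), Med21 (5.42, SE 1.16, adjusted p = 0.0409) and Polr2m (2.96, SE 0.36, adjusted p = 0.0123), the last with 2 reads in each IgG library and turning to -0.55 with quantile normalization.

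Polr2m was the 1 Polr2 gene among the 13, and the family median against IgG was 0.03, turning to -0.06 with quantile normalization, -0.50 in edgeR and -0.71 in DESeq2. All 5 shared subunits had lower estimates in His than in IgG, from -0.38 for Polr2f to -1.85 for Polr2h, and none passed. Of all genes tested, 21.5% had a lower estimate in His. For 3 of the 5 both His libraries lay below both IgG libraries, beside 9.06% of all genes tested. Polr2e had the smallest p of the 5 (-0.81, SE 0.27, adjusted p = 0.106). Polr2a overlapped, at 17.3 and 25.1 CPM in His and at 21.8 and 12.2 CPM in IgG.

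The 2 kinds of column without pulldown can be set side by side. Of 71 genes, 28 had both In_total libraries above both In_ni libraries and 28 had both below, beside 28.7% and 37.5% of all genes tested. Med30 was at 587 and 560.2 CPM in In_ni and at 949.7 and 1098 CPM in In_total, and Polr2b at 63.3 and 58.9 CPM against 24.4 and 27.9 CPM. Polr2e overlapped, as given above. Against In_ni alone, 43 of 71 genes passed (22 higher and 21 lower in His, with 40% of all genes called), and against In_total alone 26 passed (11 higher and 15 lower, with 28% called).

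Paralog pairs within the family can be read in both experiments. Gtf2a1 and Gtf2a1l encode the general and a germ-cell form of the large TFIIA subunit: in His against RNA without pulldown their estimates were -0.84 (SE 0.21, passed) and 0.81 (SE 0.31, adjusted p = 0.0637). Gtf2a1l was at 78.7 and 65.2 CPM in His and at 29.9 to 52.6 CPM without pulldown. Taf5, of TFIID, and its SAGA relative Taf5l had estimates of -1.39 (passed) and 0.74 (SE 0.38, adjusted p = 0.146). Taf6 and Taf6l had 1.004 (passed) and 1.19 (SE 0.53, adjusted p = 0.1003). The differences between paralogs were not tested. In the knockdown, Med12 was at 5.76 and 4.10 CPM in the controls and at 2.40 and 1.82 CPM in knockdown (-0.92, SE 0.55), while Med12l was at 4.88 and 4.66 CPM in the controls and at 11.3 and 7.59 CPM in knockdown (0.83, SE 0.54). Both pairs of groups were apart, and neither difference passed. Med13 (0.08, SE 0.37) and Med13l (0.32, SE 0.50) overlapped their controls. Taf7 was at 214.7 and 378 CPM in the controls, and its germ-cell paralog Taf7l at 2.12 and 0.402 CPM and at 0 in all His and IgG libraries.

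Among the wider machinery in His against RNA without pulldown, of 15 initiation partners, 9 passed as lower and 0 as higher, with a median of -1.37, beside 25.9% and 14.2% of all genes tested. Tbp, the TATA-binding protein gene, was at 35.6 and 15.5 CPM in His and at 96.4 to 121 CPM without pulldown (-2.15, SE 0.33, adjusted p = 0.00169). Others that passed were Tbpl1 (-2.42), Taf4b (-2.48), Taf9b (-3.06), the Mediator kinase genes Cdk8 (-2.32), Cdk19 (-1.67) and Ccnc (-1.15), and Ccnh (-1.56) and Mnat1 (-1.37) of the TFIIH kinase. In IgG, Taf4b was at 17.9 and 200 CPM, and none of the other initiation partners that passed exceeded 7.09 CPM. Of 30 elongation and termination factors, 10 were lower and 2 higher, with a median of -0.55. The subunits of the PAF1 complex Cdc73 (-3.82), Leo1 (-3.13) and Rtf1 (-2.41) and the elongation factor gene Ell2 (-3.06) had the lowest estimates. In IgG A and B, Leo1 was at 177 and 0 CPM, Rtf1 at 0 and 51.9 CPM, Ell2 at 0 and 4.06 CPM and Cdc73 at 0 in both. The 2 elongation factors that were higher encode both subunits of the factor DSIF, Supt5 (1.58) and Supt4a (1.45). Supt5 was at 178 and 147 CPM in His, at 33.4 to 81.7 CPM without pulldown and at 159 and 429 CPM in IgG. Of 15 subunits of RNA polymerases I and III, Polr1c, which both enzymes share, was higher (1.57) and 2 were lower, Polr3f (-2.29) and Polr3c (-0.78). Polr1c was at 206 and 249 CPM in His, at 66.6 to 83.3 CPM without pulldown and higher still in IgG, at 549.9 and 438 CPM. Supt4a was at 318 and 257 CPM in His, at 64.1 to 177 CPM without pulldown and at 283 and 0 CPM in IgG. Of the 18 alternatives, Ccnc was called in 5, Mnat1 in 6, Polr3c in 8, Ccnh in 11, and Cdk19, Supt5 and Supt4a in 17 each. Leaving out His A ended the calls of Supt5 (1.44) and Supt4a (1.29). Calls of Ccnc (-0.78 to -1.26) and Mnat1 (-1.13 to -1.56) ended for every library except His B, and those of Polr3c (-0.66 to -0.79) for every library except His A. That of Ccnh (-0.89 to -1.59) ended without His B, In_ni A or either In_total library.

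Against IgG, 6 of 14 initiation partners were higher and 0 lower, 5 of 28 elongation factors were higher and 1 lower, and 7 of 15 polymerase I and III subunits were higher and 1 lower, with 35.7% and 0.917% of all genes called. Of the higher ones, 5 in each list reached the filter through the His libraries alone, so these counts are no support for a difference of the lists. Tbpl2, which encodes the oocyte form of the TATA-binding protein, was at 8.13 and 19.1 CPM in His and at 0 reads in both IgG libraries, and is one of those that reached the filter through His alone. The 2 lower ones were Nelfcd, a NELF subunit, at 117 and 126 CPM in His against 549.9 and 522 CPM in IgG (-2.13, SE 0.37, adjusted p = 0.0246), and Polr3e, at 7.65 and 5.94 CPM against 349 and 127 CPM (-4.77, SE 1.00, adjusted p = 0.0391). Nelfcd was called in 9 of 14 alternatives and Polr3e in 7 of 14. Leaving out His A or His B ended both calls, at -2.08 and -2.18 for Nelfcd and at -4.93 and -4.61 for Polr3e.

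A few symbols are uncertain because of how reads can be assigned, and whether the counting used strand is not given in the sources used here. In the RefSeq table, 19 of the 74 genes overlap another protein-coding gene. Taf9, at 0.402 to 0.480 CPM in the controls, overlaps Ak6, which was at a mean of 83.1 CPM there. Polr2i overlaps Tbcb, at a mean of 119 CPM in the controls, and Polr2k overlaps Spag1. Med9os lies beside Med9 and did not exceed 2.42 CPM in any library. Processed pseudogenes, which may share reads with genes such as Polr2d and Polr2k, were not searched for.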

How the data were processed

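Libraries of mouse 2-cell embryos were made with a Smart-seq2 v4 kit and Nextera XT and sequenced as 150-bp paired-end reads, per the labels' protocols. The submitters' processing notes name Trim Galore 0.6.7, FastQC, HISAT2 2.2.1, featureCounts 2.0.1, edgeR and GRCm39; annotation, counting options and gene filter are not given in the sources used here. The deposited values are CPM, which the authors scaled to each library's total. All CPM values (100%) were whole multiples of 1 read within 0.01 read, so reads and totals were recovered; PCR copies are not independent molecules, and intervals and floors (3 reads, 0.108 to 0.641 CPM) cover counting error only. The 2 tables were normalized separately and tested apart.

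The members, lists and tests were chosen with earlier results of these data known. The 3 comparisons were fitted each on its own libraries, for genes reaching 1 CPM in 2 or more of them; the 4 columns without pulldown, of 2 kinds, entered as 1 group. The test was limma 3.58.1 (R 4.3.3; mean-variance trend, two-sided) on log2(CPM + 1), with Benjamini-Hochberg adjustment over all genes and a threshold of 0.05. Log2 differences are on this scale, which understates changes of low genes; SE are limma's. Scripts were tested on simulated data, with a pass condition only at a low spread between replicates. This gives no error rate for these libraries. Named genes are all Polr2 and Gtf2 genes, 6 paralog pairs, genes past the threshold (12 per direction) and the 8 with the largest difference at a mean of 5 CPM or more. Of the wider lists, genes past the threshold, or else 4, are named, and some of these are not reported here. Alternatives were pseudocounts 0.1 and 5, no filter, a mean of 5 CPM, median rescaling, a block for the replicate letter, no trend, quantile normalization, edgeR 4.0.16 and DESeq2 1.42.0 on recovered reads, a threshold of 0.1 and leaving out each library, where a group left with 1 library is assumed to vary like the other group; In_ni or In_total alone was added after seeing the data. Promoters and overlapping genes are from RefSeq tables of GRCm38.p6.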

Additional observations from a re-analysis of the deposited data

How the results depend on the processing

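In the knockdown, the count of 0 genes called held in every alternative that kept all 4 libraries, in limma, edgeR and DESeq2, and leaving out 1 library gave 0 to 20; the median of -0.133 became -0.298 to 0.007 in those fits. For His against IgG, 13 calls became 0 with quantile normalization (7 at an unadjusted p under 0.05) and in edgeR (12), 23 in DESeq2, and 0 to 51 when 1 library was left out. The median of 1.38 became 2.41 with a pseudocount of 0.1, 0.744 with 5, 0.438 with quantile normalization, -0.076 in edgeR, -0.316 in DESeq2 and 0.240 to 1.524 with 1 library left out; that of all genes, 2.01, was 3.66, 0.936, 0.647, 1.56 and 1.30 under the first 5. For His against RNA without pulldown, 34 calls became 21 to 33 with 1 library left out (28.3% to 38.6% of all genes). The median of 0.321 became 0.137 with no filter, 0.520 with median rescaling, -0.126 against In_total alone and -0.00715 to 0.424 with 1 library left out; that of all genes, -0.18, was -0.01 with median rescaling. No trend left 26 calls (9 higher, 17 lower, with 38.2% of all genes called), and a threshold of 0.1 gave 45 (49.8%).

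Against IgG, 19 of 68 members were called in opposite directions without IgG A and without IgG B, beside 14.5% of the 10797 genes tested in both fits, each of which has 1 IgG library and takes its spread from the His pair, and the 19 include Med1, Med9, Med24, Taf3 and Taf8. For 7 of the 19, values without IgG A and without IgG B were -0.893 and 1.09 for Gtf2a1, 7.40 and -1.29 for Gtf2f1, -1.32 and 5.25 for Gtf2f2, -4.43 and 3.02 for Gtf2h1, -3.01 and 4.61 for Gtf2h4, 5.04 and -2.28 for Gtf2h5, and -1.58 and 5.13 for Polr2i. Polr2m was at -0.552 with quantile normalization, and Gtf2a2 at -0.942 against In_total alone. The cause was not tested. Family medians of the Polr2, shared-subunit, Gtf2, Taf and Mediator tail genes against RNA without pulldown, and of these families in the knockdown, kept their sign with median rescaling, quantile normalization, edgeR and DESeq2. The median of the Mediator middle genes against RNA without pulldown, 0.009, turned to -0.04 in edgeR. No member called against RNA without pulldown took the other sign in any alternative run.

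Letters A and B do not state that samples were handled together, and same-letter deviations correlated at 0.146 (control and knockdown), -0.0138 (His and IgG) and 0.00572 (His and In_ni), 0.0164 (His and In_total) and 0.219 (In_ni and In_total). With the letter as a replicate block, 0 knockdown members were called (2 of all genes), 10 against IgG (34.7% of all genes) and 29 against RNA without pulldown (36% of all genes). The planned fits on Input or total RNA alone were not run, since the column names do not decide between them. Having 2 libraries per group in the knockdown, His and IgG limits these comparisons. The many genes at 0 in IgG, the poor agreement of its replicates and its lower read totals further limit that with IgG.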
